A study of Mus musculus with 4 samples.

Results

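The Rab GTPases are the largest family of small GTPases of membrane traffic, and 59 genes of the family were found here as the protein-coding genes with a numbered Rab symbol, out of 21474 protein-coding genes and 43346 gene identifiers in the tables. Total RNA depleted of ribosomal RNA was sequenced from blood cells of adult mice of the strain C57BL6, with 2 libraries of monocytes (MON) and 2 of neutrophils (NEU), as part of a survey of gene regulation across mouse blood cells. No genetic change or treatment is named for either group. The labels describe the monocytes as Gr-1+Mac-1+ cells sorted from the mononuclear layer of a Ficoll gradient, and the neutrophils as the cells left in the pellet once red cells were lysed, without a sort. A supplementary sample table lists the monocyte gate as Ly6g- CD11b+ instead. The sources do not say whether the replicate libraries came from different animals or from aliquots of 1 sort, so the p-values measure the spread between these libraries only.

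Rab proteins switch between a GDP-bound form held in the cytosol by GDP dissociation inhibitors (GDI) and a GTP-bound form on a membrane, where they recruit effectors that move, tether or fuse vesicles. Exchange factors load GTP and GTPase-activating proteins end the active state. Each Rab marks certain membranes, such as RAB5 on early endosomes, RAB7 on late endosomes and RAB27A on secretory granules, and in phagocytes several of them come and go in turn on the phagosome as it matures into a compartment that kills and digests microbes.

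Expected counts, which are read numbers estimated per gene, summed to 25538433 and 26076261 in the monocyte libraries and to 20549572 and 21634828 in the neutrophil libraries. Levels are given below as CPM, which are counts scaled to a common library size, or per transcript length as TPM where genes are compared with each other. Differences were tested with edgeR's quasi-likelihood test over 14309 genes with enough counts, and a gene was called at a Benjamini-Hochberg adjusted p under 0.05. The biological coefficient of variation was 46.2% in the monocyte pair and 14.7% in the neutrophil pair. Of 10 monocyte markers 8 were called higher in monocytes, with summed levels of 4812 and 4766 CPM in monocytes and 433 and 430 CPM in neutrophils, while Ly6c2 was not called (21.0 and 26.3 CPM in monocytes, 17.0 and 19.9 CPM in neutrophils). Cd14 was called higher in neutrophils. Ly6g, whose protein is bound by Gr-1 antibodies, had 0 counts in both monocyte libraries, against 6.67 and 5.78 CPM in neutrophils. Of 11 neutrophil markers 10 were called higher in neutrophils, with sums over all 11 of 328 and 358 CPM in monocytes and 7672 and 7945 CPM in neutrophils. The other, Retnlg, was called higher in monocytes (224 and 235 CPM in monocytes, 173 and 197 CPM in neutrophils, edgeR adjusted p = 0.0446) and made up most of the monocyte sums. Markers of other cells moved with the groups as well. All 10 NK cell markers were called higher in the monocyte libraries (sums of 2639 and 2652 CPM in monocytes, 32.7 and 34.9 CPM in neutrophils), as were the 6 basophil markers tested (143.0 and 173 CPM in monocytes, 8.87 and 7.59 CPM in neutrophils). All 9 B cell markers were called higher in the neutrophil libraries (362 and 451 CPM in monocytes, 2916 and 2868 CPM in neutrophils), as were 8 of 10 T cell markers (30.4 and 30.3 CPM in monocytes, 159 and 168 CPM in neutrophils). No NK, B or T cell marker was at 0 in both libraries of a group. Red cell markers were high in both groups, at 6215 and 6658 CPM in monocytes and 8060 and 8733 CPM in neutrophils. Of these 7 markers, 4 were called higher in neutrophils and 1 higher in monocytes. Of 10 platelet markers, 5 were called higher in neutrophils and 5 were not called. Of 3 eosinophil markers tested, only Ccr3 was called, higher in monocytes. The part of these cells in the Rab results below was not tested, and in such bulk RNA fewer cells of a type and less RNA per cell cannot be told apart.

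Rab transcripts took a larger share of the monocyte libraries. The 59 genes summed to 3129 and 3079 CPM in monocytes and to 2514 and 2515 CPM in neutrophils. Of these, 45 had enough counts for the test. Of the 45, 13 were called higher in monocytes (28.9%), where 20.8% of all tested genes and 23.4% of tested protein-coding genes were called that way. Only 4 were called higher in neutrophils (8.89%), where the shares were 21.8% of all tested genes and 22.4% of protein-coding genes. The remaining 28 were not called, although 25 of the 45 had an unadjusted p under 0.05. The median log2 fold change (monocyte over neutrophil) of the tested Rab genes was 0.24, against -0.06 over all tested genes. Fewer Rab genes were called without either neutrophil library, and more without either monocyte library. In such a fit the spread came only from the pair left whole, with a coefficient of variation of 46.2% in monocytes and 14.7% in neutrophils. These fits therefore cannot show how far the split rests on a single library. The same limit applies to every call, adjusted p and call count given below for a library left out.

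**Figure D1:**
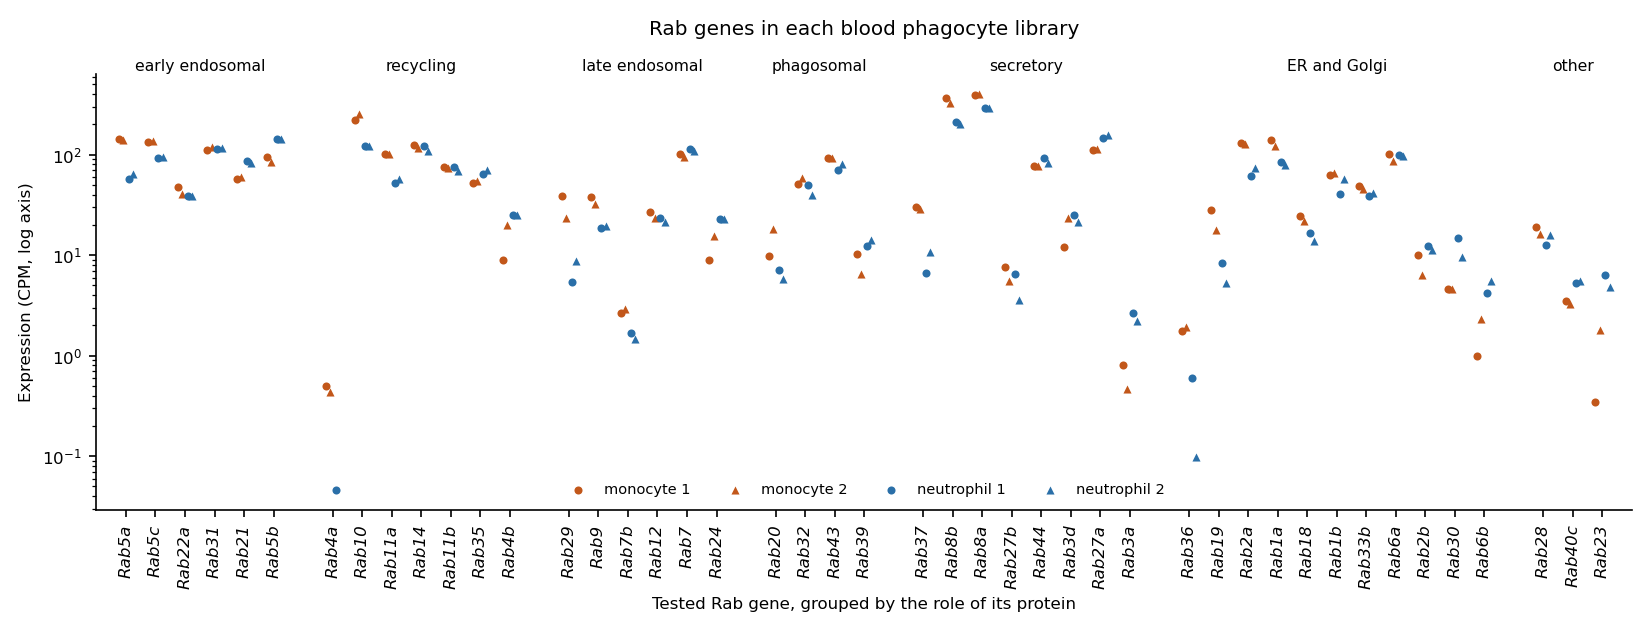
Expression of the 45 tested Rab genes (CPM, log axis) in monocyte replicates 1 and 2 and neutrophil replicates 1 and 2, with genes grouped by the role of the protein; each point is 1 library, and a library at 0 counts (Rab4a in neutrophil replicate 2) has no point. Rab8a and Rab8b stand highest in all 4 libraries, Rab5a and Rab29 lie higher in both monocyte libraries, and Rab5b and Rab27a lie higher in both neutrophil libraries.

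Among the levels per transcript length, Rab8a stood first in both cell types. Rab8a, which acts in traffic from the Golgi to the cell surface, had 77.6 and 59.8 TPM in monocytes and 48.6 and 41.7 TPM in neutrophils. It was followed in monocytes by Rab11a (mean 32.9 TPM), Rab5c (17.4), Rab8b (17.0) and Rab10 (15.7). In neutrophils the next were Rab14 (mean 16.2 TPM), Rab11a (13.0), Rab27a (12.9) and Rab7 (12.8). Several of these neighbours cannot be ordered beyond their spread. Rab14 had 20.04 and 12.3 TPM in the neutrophil libraries, a range that holds the levels of Rab11a (12.3 and 13.7), Rab27a (13.4 and 12.4) and Rab7 (13.7 and 12.0), and in monocytes Rab5c (18.0 and 16.7) overlapped Rab8b (18.8 and 15.1), which overlapped Rab10 (15.4 and 16.1).

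The early endosomal group was the only one of the 7 roles with more than 1 call in each direction (33.3% each way, beside 20.8% and 21.8% of all tested genes). Of its 6 genes, all tested, Rab5a and Rab5c were called higher in monocytes, Rab5b and Rab21 higher in neutrophils, and Rab22a and Rab31 were not called. The Rab5 genes encode 3 forms of the GTPase that drives the fusion of early endosomes and enters new phagosomes first. Rab5a had 145 and 140 CPM in monocytes and 57.7 and 64.2 CPM in neutrophils, with no overlap, a log2 fold change of 1.23 ± 0.10 (SE, n = 2 libraries each, edgeR adjusted p = 0.000485). Rab5b went the other way. It had 95.7 and 84.5 CPM in monocytes and 142 and 144 CPM in neutrophils (-0.67 ± 0.10, edgeR adjusted p = 0.00417). Rab5c had 135 and 138 CPM in monocytes and 93.2 and 93.9 CPM in neutrophils (0.55 ± 0.09, edgeR adjusted p = 0.00483; adjusted p = 0.0548 without neutrophil replicate 1). The make-up of the Rab5 transcripts differed accordingly, while Rab5c held the largest share in all 4 libraries. Rab5a made up 37.9% and 37.3% of Rab5 TPM in monocytes and 20.8% and 22.4% in neutrophils, a difference of 16.0 points. Rab5b made up 18.2% and 16.4% in monocytes and 37.4% and 36.7% in neutrophils, and Rab5c 43.9% and 46.3% in monocytes and 41.9% and 40.9% in neutrophils. The spread of RSEM's read assignment was at most 0.131% of the count for Rab5b and 0 for Rab5a and Rab5c, so little of the counts rested on reads shared between the copies.

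Rab21, which acts on early endosomes and in integrin traffic, had 58.0 and 59.7 CPM in monocytes and 87.3 and 82.6 CPM in neutrophils (-0.53 ± 0.10, edgeR adjusted p = 0.00973; 0.112 without neutrophil replicate 1 and 0.0549 by limma on log2(TPM + 1)). The uncalled pair, whose proteins link early endosomes to the Golgi, showed smaller differences. Rab31 had 111 and 119 CPM in monocytes and 113 and 118 CPM in neutrophils, which overlap, and Rab22a had 48.0 and 41.0 CPM in monocytes and 38.9 and 38.4 CPM in neutrophils.

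The promoters of the early endosomal genes Rab5a, Rab21 and Rab5b are shown because their transcripts moved in opposite directions. RefSeq start sites on GRCm38.p6 gave a window from 250 bases before to 50 after the start for 48 of the 59 Rab genes. Each window is written 5′ to 3′ on the strand of the gene, and capitals mark the E-box CACGTG, a palindrome that reads the same on both strands and is bound by basic helix-loop-helix factors such as USF1 and TFEB. Rab5a (chr17:53478984-53479283, plus strand), Rab21 (chr10:115315542-115315841, minus strand) and Rab5b (chr10:128696219-128696518, minus strand) read as follows.
Rab5a: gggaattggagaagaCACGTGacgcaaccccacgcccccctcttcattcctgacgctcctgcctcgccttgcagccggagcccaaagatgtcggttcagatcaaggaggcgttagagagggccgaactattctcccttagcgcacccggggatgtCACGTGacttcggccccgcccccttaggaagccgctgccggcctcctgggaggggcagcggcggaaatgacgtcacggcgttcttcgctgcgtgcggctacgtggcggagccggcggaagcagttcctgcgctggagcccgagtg
Rab21: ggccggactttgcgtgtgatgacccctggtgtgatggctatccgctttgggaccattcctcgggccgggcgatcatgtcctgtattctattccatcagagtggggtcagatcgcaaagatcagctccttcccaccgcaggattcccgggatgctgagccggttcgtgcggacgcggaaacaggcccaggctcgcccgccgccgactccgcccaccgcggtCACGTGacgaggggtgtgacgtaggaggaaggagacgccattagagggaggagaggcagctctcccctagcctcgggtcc
Rab5b: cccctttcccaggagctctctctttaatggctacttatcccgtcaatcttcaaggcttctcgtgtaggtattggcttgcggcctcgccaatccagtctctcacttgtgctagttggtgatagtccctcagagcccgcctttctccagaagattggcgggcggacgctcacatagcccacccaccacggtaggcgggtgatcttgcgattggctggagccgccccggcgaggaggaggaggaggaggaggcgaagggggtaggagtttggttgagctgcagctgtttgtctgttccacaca
Rab5a, higher in monocytes, and Rab21, higher in neutrophils, both held an E-box, beginning 235 and 95 bases before the start in Rab5a and 30 bases before it in Rab21. The Rab5b window held none, and neither did those of Rab5c, called higher in monocytes, and of the uncalled Rab22a and Rab31. An E-box stood in the windows of 6 of the 48 Rab genes (12.5%; Rab5a, Rab20, Rab21, Rab23, Rab24 and Rab27a), against 8.09% of 27025 genes. The other motifs searched, on both strands, were the PU.1 motif GAGGAAGT (Rab2b and Rab32, 4.17%, against 3.69% of all genes), the ETS motif CCGGAAGT (Rab11a and Rab24, 4.17%, against 4.31%) and the C/EBP motif TTGCGCAA (0 of 48, against 0.207%). The PU.1 and ETS motifs both hold the bases GGAAGT. A match is a description of the sequence and not a measured site.

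**Figure D2:**
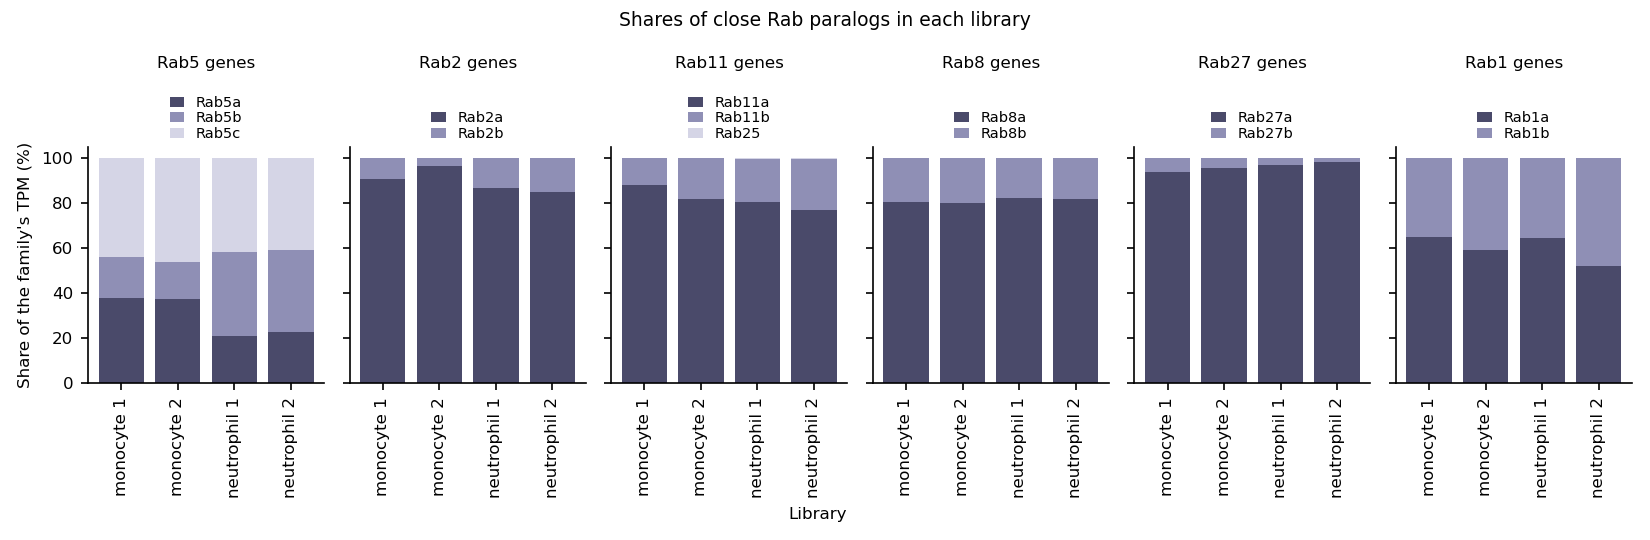
Share of the summed TPM of each close family held by each member (percent, bars from 0 to 100%), for monocyte replicates 1 and 2 and neutrophil replicates 1 and 2. The Rab5 shares differ, with Rab5a at 37.9% and 37.3% in monocytes and 20.8% and 22.4% in neutrophils, while Rab8a holds between 79.9% and 82.3% of the Rab8 pair in every library.

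Of the recycling Rab genes, 2 of 7 tested were called, both higher in monocytes (28.6%, beside 20.8% of all tested genes). Rab10, which carries cargo such as TLR4 to the cell surface in macrophages, had 220 and 255 CPM in monocytes and 121 and 124 CPM in neutrophils (0.96 ± 0.10, edgeR adjusted p = 0.00113). Rab11a, the main Rab of the recycling endosome, had 101 and 102 CPM in monocytes and 52.1 and 57.1 CPM in neutrophils (0.89 ± 0.10, edgeR adjusted p = 0.00156). Its TPM differed by more, 32.3 and 33.5 in monocytes and 12.3 and 13.7 in neutrophils, as the mean effective transcript length in the tables was 686 bases in monocytes and 917 in neutrophils. Its paralog Rab11b was not called and overlapped, with 74.9 and 73.3 CPM in monocytes and 75.9 and 68.7 CPM in neutrophils. Rab14, which works between endosomes and the Golgi and delays phagosome maturation, was not called either. It had 126 and 117 CPM in monocytes and 123 and 110 CPM in neutrophils (0.06 ± 0.10). With transcript length as an offset the value was -0.45 and still not called. Rab35 (-0.32 ± 0.11, edgeR adjusted p = 0.0642) and Rab4b (-0.80 ± 0.37) were also uncalled, and both were called higher in neutrophils without monocyte replicate 2 (adjusted p of 0.0203 for Rab35 and 3.49e-05 for Rab4b). Rab4b, of the rapid recycling route, had 9.02 and 19.9 CPM in monocytes, against 25.0 and 25.1 CPM in neutrophils, and 1280 of its 1970 exon bases are shared with a same-strand gene model at 0 counts. Its paralog Rab4a had 24 counts in monocytes and 1 in neutrophils, a ratio per total count of 19.6 with a 95% counting interval of 3.2 to 807, and was not called (edgeR adjusted p = 0.0702). That interval, like every counting interval here, covers counting error only and leaves out the spread between libraries. Amplified fragments were not told apart, so it may be too narrow even for counting error. A floor covers only the group at 0 counts.

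Late endosomal Rab genes gave 2 calls of 6 tested, both higher in monocytes (33.3%, beside 20.8% of all tested genes). Rab29, which recruits the kinase LRRK2 to Golgi and lysosome membranes, had 38.8 and 23.2 CPM in monocytes and 5.42 and 8.77 CPM in neutrophils, with no overlap but a spread of over 1.5-fold within each pair (4.37-fold, log2 2.13 ± 0.35, edgeR adjusted p = 0.00605). Rab29 lies on chromosome 1 (mm10, 131867224 to 131872887, plus strand). Rab9, which returns mannose 6-phosphate receptors from late endosomes to the Golgi, had 38.2 and 32.4 CPM in monocytes and 18.9 and 19.5 CPM in neutrophils (0.88 ± 0.16, edgeR adjusted p = 0.00761; 0.0554 without neutrophil replicate 1). Rab7, the Rab of fusion with the lysosome and the most abundant of the group, was not called, at 101 and 94.0 CPM in monocytes and 114 and 110 CPM in neutrophils (-0.20 ± 0.09, edgeR adjusted p = 0.146; 0.0431 without monocyte replicate 1). Rab24, linked to autophagy, had 8.87 and 15.7 CPM in monocytes and 22.7 and 23.0 CPM in neutrophils (-0.90 ± 0.30, edgeR adjusted p = 0.0578). It was called higher in neutrophils by DESeq2, with other filters, among protein-coding genes only, by limma on log2(TPM + 1) and without either monocyte library, with adjusted p of 0.0108 without replicate 1 and 7.14e-05 without replicate 2. In its case 1258 of 2015 exon bases lie opposite exons of Prelid1, and none of the sources says whether strand was used in counting. Prelid1 had 25.4 and 40.3 CPM in monocytes and 48.4 and 47.6 CPM in neutrophils, also lower in monocyte replicate 1 than in replicate 2. The part of Prelid1 reads in the Rab24 counts was not tested. Rab7b was not called (2.67 and 2.94 CPM in monocytes, 1.70 and 1.47 CPM in neutrophils), nor was Rab12 (26.9 and 23.2 CPM in monocytes, 23.5 and 21.4 CPM in neutrophils).

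None of the 4 tested phagosomal Rab genes was called, though 2 of them had an unadjusted p under 0.05. Rab20, which takes part in phagosome maturation in macrophages, came nearest, with 9.86 and 18.1 CPM in monocytes and 7.12 and 5.83 CPM in neutrophils (1.11 ± 0.37, edgeR adjusted p = 0.0578). DESeq2 called it higher in monocytes, and edgeR did so without a filter, among protein-coding genes only and without monocyte replicate 1 (adjusted p = 0.000307). Rab43, which acts in phagosome maturation and in antigen cross-presentation by dendritic cells, had 93.6 and 93.4 CPM in monocytes and 70.3 and 81.0 CPM in neutrophils (0.30 ± 0.11, edgeR adjusted p = 0.0746; called without monocyte replicate 2, with 0.0481). Rab32, known for delivering an antimicrobial activity to bacterial vacuoles in macrophages, had 50.9 and 59.2 CPM in monocytes and 50.1 and 39.3 CPM in neutrophils (0.30 ± 0.17). Rab39, a Rab of maturing phagosomes, had 10.2 and 6.44 CPM in monocytes and 12.3 and 14.1 CPM in neutrophils (-0.66 ± 0.31). It was called higher in neutrophils without monocyte replicate 1 (adjusted p = 0.00367). Rab32 and Rab29 are close relatives, and Rab29 made up 59.2% and 47.8% of their summed TPM with Rab38 in monocytes and 22.1% and 32.5% in neutrophils.

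Secretory Rab genes gave 3 calls higher in monocytes and 1 higher in neutrophils of 8 tested (37.5% and 12.5%, beside 20.8% and 21.8% of all tested genes). Rab27a, the Rab that docks secretory granules and exosome-bearing endosomes at the cell surface, and which is mutated in Griscelli syndrome, had 111 and 114 CPM in monocytes and 148 and 156 CPM in neutrophils. The groups did not overlap, and the difference was modest (-0.43 ± 0.09, 1.35-fold, edgeR adjusted p = 0.0113; 0.0613 without neutrophil replicate 1 and 0.104 without neutrophil replicate 2). Rab27b was not called (7.64 and 5.58 CPM in monocytes, 6.53 and 3.58 CPM in neutrophils). Rab27a held between 93.6% and 98.2% of the TPM of the pair in every library. Rab37, found on mast cell granules, had 30.1 and 29.0 CPM in monocytes and 6.62 and 10.9 CPM in neutrophils (3.38-fold, log2 1.76 ± 0.27, edgeR adjusted p = 0.00453). The gene lies on chromosome 11 (mm10, 115091431 to 115162236, plus strand), and its span holds the opposite-strand Cd300lf, with which it shares 0 exon bases and which ran the other way (31.5 and 23.6 CPM in monocytes, 366 and 359 CPM in neutrophils). Rab8b had 368 and 328 CPM in monocytes and 212 and 203 CPM in neutrophils (0.74 ± 0.09, edgeR adjusted p = 0.002). Rab8a had 390 and 403 CPM in monocytes and 294 in both neutrophil libraries (0.43 ± 0.07, edgeR adjusted p = 0.00707; 0.0647 and 0.0697 without neutrophil replicates 1 and 2, and 0.0586 by limma on log2(TPM + 1)). Rab44, a large Rab of granulated cells, was not called (76.7 and 77.9 CPM in monocytes, 92.8 and 82.6 CPM in neutrophils). The same held for Rab3d and Rab3a, whose family controls regulated exocytosis. Rab3d had 12.0 and 23.6 CPM in monocytes and 25.1 and 21.6 CPM in neutrophils, which overlap, and Rab3a had 0.803 and 0.471 CPM in monocytes and 2.67 and 2.20 CPM in neutrophils. Rab3d was called higher in neutrophils without monocyte replicate 2 (adjusted p = 0.00096) and Rab3a without monocyte replicate 1 (0.0201).

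Of the Rab genes of the endoplasmic reticulum (ER) and Golgi, 11 were tested, 4 were called higher in monocytes and 1 higher in neutrophils. These are 36.4% and 9.09%, beside 20.8% and 21.8% of all tested genes. Rab1a and Rab2a, which carry traffic between the ER and Golgi, both stood higher in monocytes. Rab2a had 131 and 128 CPM in monocytes and 60.9 and 73.9 CPM in neutrophils (0.94 ± 0.12, edgeR adjusted p = 0.00239), and Rab1a had 139 and 122 CPM in monocytes and 84.6 and 78.8 CPM in neutrophils (0.67 ± 0.11, edgeR adjusted p = 0.00511; 0.0682 by limma on log2(TPM + 1)). Rab18, of the ER and lipid droplets, had 24.5 and 22.0 CPM in monocytes and 16.5 and 13.7 CPM in neutrophils (0.62 ± 0.19, edgeR adjusted p = 0.0427). That call was lost without neutrophil replicate 1 (0.154) or 2 (0.398), with DESeq2 (0.0548), with limma on log2(TPM + 1) (0.0888) and with the length offset (0.0748). Rab19, a Golgi Rab on chromosome 6 (mm10, 39381175 to 39390380, plus strand), had 27.9 and 18.0 CPM in monocytes and 8.46 and 5.24 CPM in neutrophils, with no overlap (3.34-fold, log2 1.74 ± 0.34, edgeR adjusted p = 0.0111). Rab30, another Golgi Rab, on chromosome 7 (mm10, 92741603 to 92844535, plus strand), was the only Rab gene called higher in neutrophils by more than 2-fold. It had 4.66 and 4.59 CPM in monocytes and 14.7 and 9.70 CPM in neutrophils (2.64-fold, log2 -1.40 ± 0.32, edgeR adjusted p = 0.0191), and the call was lost without neutrophil replicate 1 (0.234), with both limma fits on TPM (0.0577 and 0.0572), with transcript length as an offset (0.0502) and in a test against a 2-fold change (0.217). The paralogs of the called pair were not called. Rab1b had 62.4 and 66.4 CPM in monocytes, against 40.8 and 57.0 CPM in neutrophils. Rab2b had 10.1 and 6.40 CPM in monocytes and 12.3 and 11.2 CPM in neutrophils (called higher in neutrophils without monocyte replicate 1, adjusted p = 0.0103). It shares 195 of 4163 exon bases with the opposite-strand Tox4 (139 and 137 CPM in monocytes, 106 and 98.8 CPM in neutrophils), so without strand its reads could include those of Tox4. Rab6a, of traffic within the Golgi, overlapped (102 and 87.5 CPM in monocytes, 98.4 and 97.7 CPM in neutrophils). Of its 3728 exon bases, 708 lie opposite exons of Mrpl48. Log2 fold changes of the uncalled Rab33b, Rab36 and Rab6b were 0.24, 2.38 and -1.57, and Rab36 and Rab6b stayed under 6 CPM in every library. Rab6b was called higher in neutrophils without monocyte replicate 1 (adjusted p = 0.0495) or 2 (0.0023).

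**Figure D3:**
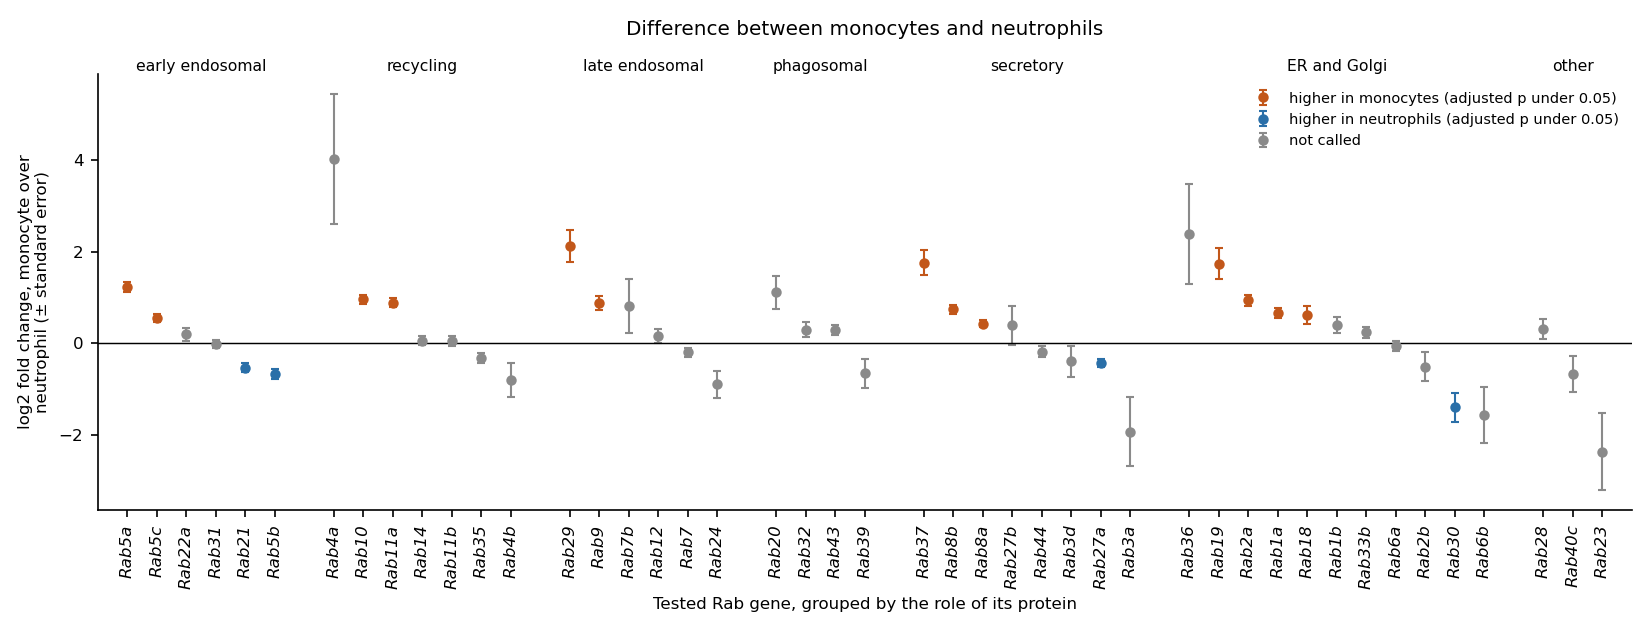
Log2 fold change (monocyte over neutrophil) of each tested Rab gene, with its standard error as the bar, grouped by role; colour marks the 13 genes called higher in monocytes, the 4 called higher in neutrophils and the 28 not called at an edgeR adjusted p under 0.05. The early endosomal genes run from 1.23 for Rab5a to -0.67 for Rab5b, the 4 phagosomal genes are all uncalled, and the widest bars belong to genes with few counts such as Rab4a.

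The 3 other tested genes were not called. They were Rab23, known from Hedgehog signalling (0.344 and 1.81 CPM in monocytes, 6.30 and 4.85 CPM in neutrophils, edgeR adjusted p = 0.0709, and called without monocyte replicate 1 (0.00769) or 2 (0.000106) and by DESeq2), Rab28, known from cilia (19.1 and 16.2 CPM in monocytes, 12.6 and 15.8 CPM in neutrophils), as well as Rab40c, part of a ubiquitin ligase (3.52 and 3.30 CPM in monocytes, 5.24 and 5.58 CPM in neutrophils). The 14 untested genes had at most 18 counts in a library. Rab3c, Rab9b, Rab15, Rab34 and Rab40b had 0 counts in all 4 libraries. Rab13, Rab17, Rab38 and Rab42 had 1 or 2 counts, all in neutrophils, and Rab39b had 3 in monocytes and 5 in neutrophils. With the group at 0 counts set to a floor of 3, Rab33a was at least 4.36-fold higher in monocytes, with all 16 counts in replicate 1. Rab25 was at least 4.08-fold lower in monocytes (0 counts, against 10 in neutrophils). So was Rab3b by at least 2.45-fold (0 against 6, all in neutrophil replicate 1). Rab26, which shares 267 exon bases with Traf7, was at least 7.34-fold lower (0 against 18, all in neutrophil replicate 2). These folds rest on few reads. They bound the group at 0 counts only and take the count of the other group as it stands, so they are no confidence limits.

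Monocyte replicates differed more than neutrophil replicates for some Rab genes. Of 37 tested Rab genes with at least 5 CPM in both monocyte libraries, 8 differed by more than 1.5-fold between them (Rab2b, Rab3d, Rab4b, Rab19, Rab20, Rab24, Rab29 and Rab39), and of 38 in the neutrophil libraries 4 did (Rab19, Rab29, Rab30 and Rab37). The median ratio between replicates was 1.12 in monocytes and 1.09 in neutrophils.

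The proteins that control and read Rab GTPases were looked at in 148 genes, of which 137 were tested. Of these, 32 were called higher in monocytes (23.4%) and 42 higher in neutrophils (30.7%), beside 20.8% and 21.8% of all tested genes, and the median log2 fold change was -0.15. Without neutrophil replicate 2, 15 were called higher in monocytes, and without neutrophil replicate 1, 17. Within the chaperones and lipid-adding enzymes, of which 10 were tested, 3 were called higher in monocytes and 4 higher in neutrophils. These counts stand beside the same 20.8% and 21.8% of all tested genes. Gdi2, which encodes a GDI, had 387 and 453 CPM in monocytes, against 269 and 234 CPM in neutrophils (0.74 ± 0.12, edgeR adjusted p = 0.00512). Rabac1, which binds prenylated Rabs, stood higher in neutrophils (-1.16 ± 0.16) and the prenyl-protein protease gene Zmpste24 higher in monocytes (0.61 ± 0.17), with Zmpste24 not called without neutrophil replicate 1 (adjusted p = 0.179) or 2 (0.127).

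Exchange factors were called higher in monocytes in 8 of 37 genes and higher in neutrophils in 13 (21.6% and 35.1%). The shares of all tested genes were 20.8% and 21.8%. Rin2, an exchange factor for RAB5, had 93.9 and 78.1 CPM in monocytes and 30.0 and 26.2 CPM in neutrophils (1.61 ± 0.15, edgeR adjusted p = 0.000719). C9orf72, which forms a complex with SMCR8 and WDR41, had 42.7 and 58.1 CPM in monocytes and 21.6 and 21.4 CPM in neutrophils (1.23 ± 0.19). Dennd3, an exchange factor for RAB12, had 20.5 and 15.1 CPM in monocytes and 109 and 108 CPM in neutrophils (-2.61 ± 0.17, edgeR adjusted p = 0.000249), and Dennd5b had 18.3 and 15.6 CPM in monocytes and 124 and 102 CPM in neutrophils (-2.73 ± 0.16). GTPase-activating proteins gave 9 calls higher in monocytes and 8 higher in neutrophils of 38 (23.7% and 21.1%), near the shares of all tested genes. They included Tbc1d9 (2.80 ± 0.19) and Tbc1d30 (2.62 ± 0.45) towards monocytes, and Tbc1d14, which acts in traffic of recycling endosomes to autophagosomes (-2.25 ± 0.16), and Tbc1d10c (-1.69 ± 0.12) towards neutrophils.

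Effectors and kinases also ran both ways. LRRK2 phosphorylates several Rab proteins, among them RAB8A, RAB10, RAB12 and RAB29, and the phosphatase PPM1H reverses this for some of them. Lrrk2 had 192 and 181 CPM in monocytes and 538 and 526 CPM in neutrophils (-1.51 ± 0.08, edgeR adjusted p = 0.000126), while Ppm1h had 166 and 143 CPM in monocytes and 42.8 and 40.5 CPM in neutrophils (1.89 ± 0.11, edgeR adjusted p = 0.000186). The differences of Rab29, Rab10 and Rab8a had the sign of Ppm1h and the opposite sign to Lrrk2, while Rab12 overlapped and was not called (0.16 ± 0.16). The Rab genes named here are not all those whose proteins LRRK2 phosphorylates. Of the 45 tested Rab genes, 27 had a positive log2 fold change and 18 a negative one. A link between these genes, Lrrk2 and Ppm1h was not tested. Lrrk1, which phosphorylates RAB7, was called higher in monocytes (0.46 ± 0.12, adjusted p = 0.0252), a call lost without neutrophil replicate 1 (0.223) or 2 (0.312). Endosomal effectors gave 6 calls higher in monocytes and 8 higher in neutrophils of 25, beside 20.8% and 21.8% of all tested genes. Rilpl2, which binds phosphorylated RAB8A and RAB10, had 37.2 and 45.4 CPM in monocytes and 11.9 and 16.9 CPM in neutrophils (1.52 ± 0.22), whereas Rubcn, a RAB7 effector that takes part in LC3-associated phagocytosis, had 47.4 and 27.1 CPM in monocytes and 160 and 165 CPM in neutrophils (-2.13 ± 0.26). Ocrl, an inositol phosphatase, was called higher in monocytes (1.38 ± 0.27, adjusted p = 0.011; 0.0845 without neutrophil replicate 2), and the RAB11 effector gene Rab11fip5 higher in neutrophils (-1.92 ± 0.38).

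Secretory effectors gave 3 calls higher in monocytes and 4 higher in neutrophils of 12 (25.0% and 33.3%, beside 20.8% and 21.8% of all tested genes). The RAB27 effectors split. Sytl3 had 78.5 and 96.7 CPM in monocytes and 3.86 and 4.80 CPM in neutrophils (4.34 ± 0.20, edgeR adjusted p = 7.72e-05), and Sytl2 had 35.9 and 37.9 CPM in monocytes and 3.17 and 1.86 CPM in neutrophils (3.87 ± 0.29, edgeR adjusted p = 0.000352). The summed NK cell markers moved with them (2639 and 2652 CPM in monocytes, 32.7 and 34.9 CPM in neutrophils), but their part in these values was not tested. Myo5a, the motor that carries RAB27A-bearing granules, had 136 and 116 CPM in monocytes and 220 and 215 CPM in neutrophils (-0.79 ± 0.10). Unc13d, which primes granules for release, had 49.5 and 44.8 CPM in monocytes and 62.4 and 67.4 CPM in neutrophils (-0.46 ± 0.12, adjusted p = 0.0264; 0.124 and 0.232 without neutrophil replicates 1 and 2). Both had the sign of Rab27a. Golgi effectors gave 1 call higher in monocytes, Tmf1 (0.34 ± 0.08, lost without either neutrophil library, with adjusted p of 0.203 and 0.246), and 4 of 10 higher in neutrophils, among them Mical1 (-0.88 ± 0.10) and Golgb1 (-0.87 ± 0.11).

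**Figure D4:**
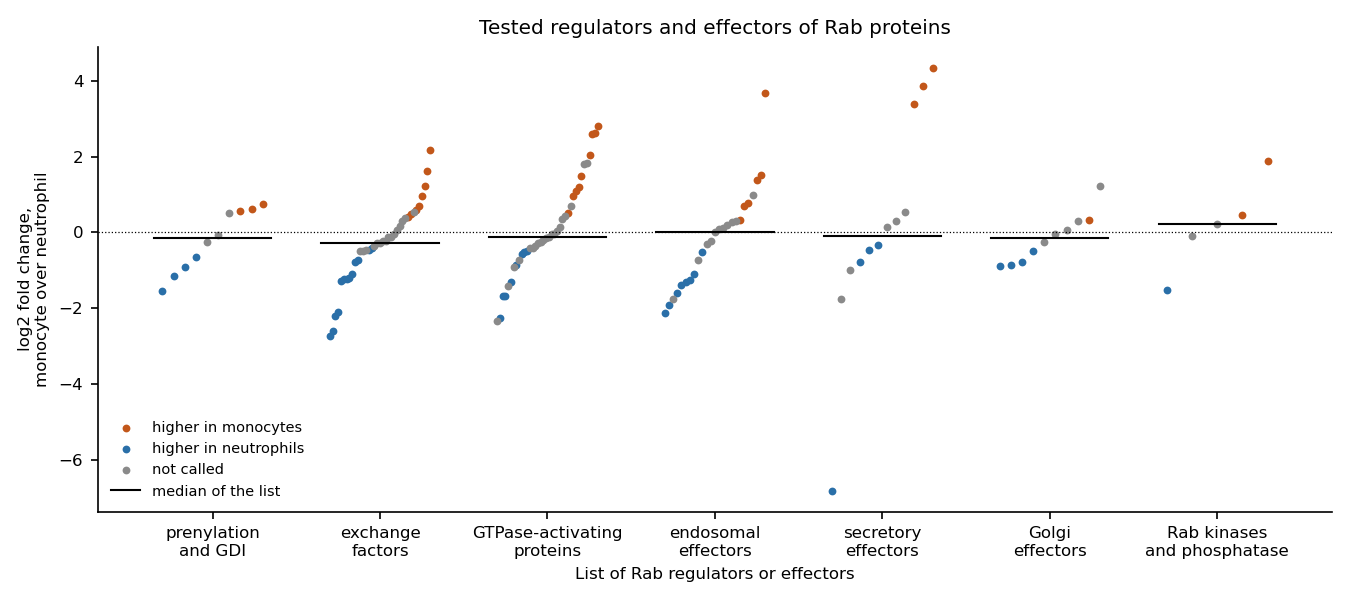
Log2 fold change (monocyte over neutrophil) of each tested regulator or effector of Rab proteins by list, sorted within the list, with the median of the list as a line and colour marking calls at an edgeR adjusted p under 0.05. Every list has calls in both directions; the lowest point is Exph5, with 0 counts in both monocyte libraries and 25 in neutrophils, for which the drawn value is no bound and which was at least 10.2-fold lower in monocytes.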

How the data were processed

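Total RNA was measured in 2 monocyte and 2 neutrophil libraries, grouped by their labels. The authors aligned reads to mm10 with STAR and quantified genes with RSEM, after bcl2fastq. The deposited files give RSEM expected counts, which share reads that match several genes among them, and the authors' TPM, which corrects for transcript length. The deposited effective lengths and posterior estimates were used for length and read-assignment checks. None of the sources used here gives the strand setting. Libraries were made with random priming and PCR, without molecular identifiers.

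Names and mm10 coordinates came from GENCODE M21 by gene identifier (42462 of 43346, 98.0%), and promoter windows from RefSeq (GRCm38.p6). Expected counts were rounded, kept by filterByExpr (14309 genes), scaled by TMM (factors 0.9936 to 1.006) and tested with edgeR 4.0.16 (R 4.3.3), monocyte over neutrophil, with Benjamini-Hochberg adjustment over all tested genes. The standard error is the absolute log2 fold change divided by the square root of F. A fold against 0 counts used a floor of 3 counts over the group. The fit was also run on simulated data in which both groups had the same spread per gene. The monocyte and neutrophil pairs differed in spread, so that run cannot show how the fit handles them. Each Rab was given 1 role from general knowledge, although several act in more than 1 place. Levels and TPM shares of paralogs have no test.

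The members, roles and lists were chosen with earlier results of these data known. The naming rule took Rab genes called with at least a 2-fold change and the 5 with the highest mean TPM per cell type, and, per list of partners, the 2 genes called each way that differed most among those with at least 5 CPM in the higher cell type; values of other genes were chosen after they were seen. A gene that the rule named is not reported here. Alternatives were DESeq2 1.42.0 size factors and test, library size alone, no filter, a filter of 10 CPM in 2 libraries, an effective length offset, limma 3.58.1 on log2 TPM with a pseudocount of 1 or 0.1, protein-coding genes only, a test against a 2-fold change, posterior mean TPM for shares, and leaving out each library.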

Additional observations from a re-analysis of the deposited data

How the results depend on the processing

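Of the 17 called Rab genes, all 17 were called the same way with DESeq2 size factors, library size alone, no filter, protein-coding genes only and without either monocyte library. In all, 16 were with the filter of 10 CPM and with the DESeq2 test, 15 with the effective length offset, 12 with each limma fit, 10 and 14 without neutrophil replicates 1 and 2, and 2 when tested against a 2-fold difference. A lone library left in a group was assumed to vary like the other pair.

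Counts that moved by over 1.5 times are given as numbers of genes called. No filter gave 7 Rab genes higher in neutrophils, with 1 late endosomal, 1 recycling and 1 other gene among them, and 1 phagosomal gene higher in monocytes. The 10 CPM filter gave 1 late endosomal, 1 recycling and 0 ER and Golgi genes higher in neutrophils. DESeq2 and the fit to protein-coding genes each gave 1 late endosomal and 1 other gene higher in neutrophils and 1 phagosomal gene higher in monocytes. Both limma fits gave 2 ER and Golgi genes and 17 partners higher in monocytes, and 0 ER and Golgi genes and 1 early endosomal gene higher in neutrophils. With a pseudocount of 1, limma gave 1 late endosomal gene, and with 0.1 it gave 2 Rab genes and 25 partners higher in neutrophils. The length offset gave 0 ER and Golgi genes higher in neutrophils. The test against a 2-fold change gave 2 Rab genes higher in monocytes, 1 late endosomal and 1 secretory, and 0 in the early endosomal, recycling and ER and Golgi groups, with 0 Rab genes higher in neutrophils (0 early endosomal, 0 secretory, 0 ER and Golgi) and 8 and 13 partners higher in monocytes and in neutrophils.

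Leaving out each library gave 9 to 15 Rab genes higher in monocytes and 1 to 11 higher in neutrophils. By role, the ranges higher in neutrophils were 0 to 3 for ER and Golgi, 1 to 2 for early endosomal, 0 to 2 for late endosomal, recycling and secretory, and 0 to 1 for phagosomal and other genes. The ranges higher in monocytes were 1 to 2 for early endosomal, 1 to 2 for late endosomal and 0 to 1 for phagosomal genes. The partners ranged between 15 and 40 higher in monocytes and between 32 and 57 higher in neutrophils.

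The median of tested Rab genes was 0.03 with no filter, 0.36 with limma at a pseudocount of 0.1, 0.37 with the length offset and 0.07 to 0.26 over the libraries left out. The median of all tested genes was -0.06, and -0.32 with no filter, 0.05 and 0.06 with limma at pseudocounts of 1 and 0.1, -0.03 with the length offset and -0.10 to 0.01 over the libraries left out. Signs turned only for uncalled genes. Rab14 was at -0.36 and -0.39 with limma at pseudocounts of 1 and 0.1, -0.45 with the length offset and -0.05 to 0.13 over the libraries left out. Under limma at 1 and 0.1, Rab22a was at -0.0033 and -0.01, Rab31 at 0.02 and 0.02, and Rab6a at 0.14 and 0.16. The offset gave -0.04 for Rab22a, 0.13 for Rab6a and 0.65 for Rab6b. Leaving out each library in turn gave ranges of -0.07 to 0.02 for Rab31, -0.98 to 0.00081 for Rab3d, -0.18 to 0.03 for Rab6a, -0.06 to 0.09 for Rab11b and -0.01 to 0.87 for Rab27b. With posterior mean TPM, Rab40b, a gene with 0 counts in all libraries, took 20.5% of Rab40 TPM in monocytes and 14.9% in neutrophils, a difference of 5.63 points against 0 in TPM, and Rab40c took the rest. The share of Rab3d in monocytes was 81.5%, against 86.5% in TPM. The cause of these shifts was not tested. No paired analysis was possible because the replicate numbers used here follow deposit order, and the labels link no monocyte library to a neutrophil library. The 14 untested Rab genes had too few counts for the test.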
